A study of Homo sapiens with 12 samples.

Results

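The genes described here are 30 genes of the TCA cycle and of glutamine metabolism: enzymes of the cycle, the isocitrate, malate and pyruvate enzymes around it, genes that take up, make or break down glutamine, aspartate aminotransferases and mitochondrial carriers. They were chosen by name from the 54261 gene symbols of the deposited count table, and all 30 were found and had enough counts to be tested. The series measured RNA by sequencing in SW480 and DLD1, 2 human cell lines labelled as colorectal cancer, with and without lactate, which cells make from pyruvate at the end of glycolysis, export and import. Each line gave 3 control libraries, labelled as having had no lactate, and 3 libraries treated with lactate. The series' design text calls the 3 libraries of a group biological replicates, without saying how they were separated, and p-values measure the spread between them. Neither the lactate dose nor the duration of treatment is stated.

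The TCA cycle runs in the mitochondrial matrix. It oxidises the acetyl group of acetyl-CoA to carbon dioxide and passes the electrons to the respiratory chain, and its intermediates are drawn off for the synthesis of aspartate, glutamate and lipids. Glutamine refills the cycle: a glutaminase turns it into glutamate, and glutamate dehydrogenase or an aminotransferase turns that into 2-oxoglutarate. Carriers of the inner membrane move malate, aspartate, glutamate, 2-oxoglutarate, citrate and dicarboxylates between matrix and cytosol, and the malate-aspartate shuttle built from them carries reducing equivalents into the mitochondrion. Lactate enters the same network after lactate dehydrogenase has oxidised it to pyruvate.

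The libraries held 12302311 to 22662063 counts. Levels are CPM, counts per 1000000 counts of the library, scaled between libraries by TMM, and are given as mean ± standard deviation (SD) with n = 3 per group. DLD1 controls 2 and 3 stood apart. The log2 differences of a library from the others of its group had an SD over 11759 genes of 0.537 in DLD1 control 2 and 0.443 in DLD1 control 3, against at most 0.261 in any SW480 or DLD1 lactate library. Among the 30 genes, these differences followed the GC content of the transcript, with Spearman's rho -0.93 in control 2 and 0.95 in control 3 (n = 30 genes, described without a p). The smaller differences of other libraries could follow it too. Their rho ran from -0.73 (DLD1 lactate 2) to 0.79 (SW480 lactate 1), with SW480 lactate 3 at -0.69. The labelled cell type was checked against markers. In the libraries labelled SW480 several epithelial markers did not match it, and the identity of the line was not tested. EPCAM, CDH1, CDX2, VIL1 and KRT20, genes of colorectal epithelium, were at or near 0 in the libraries labelled SW480 (EPCAM 0.988 ± 0.189 CPM in controls, KRT20 at 0 in all 6), while the epithelial keratin KRT8 stood at 1348 ± 112 CPM. Of the 11 epithelial genes, KRT19 and ELF3 rose with lactate in SW480 (0.71 ± 0.22 and 1.16 ± 0.17 on the log2 scale, ± standard error) and KRT8 and KRT18 fell (-0.51 ± 0.14 and -0.61 ± 0.12), and their sum ran from 2001 to 2353 CPM in controls and from 1425 to 1761 CPM after lactate. In DLD1 controls, EPCAM stood at 687 ± 18.5 CPM and KRT20 at 0.798 ± 0.119 CPM, and the 11 genes summed to 6626 to 9505 CPM in controls and 9389 to 10552 CPM after lactate. Of the 11 genes, only CEACAM5 was called with lactate in DLD1. It rose from 1.30 ± 0.650 to 4.69 ± 0.729 CPM (1.82 ± 0.35 on the log2 scale, ± standard error). The 7 fibroblast markers summed to 256 to 268 CPM in SW480 controls, mostly COL3A1 (146 ± 10.3) and DCN (83.2 ± 5.88), with COL1A2 and FAP under 1 CPM, and to 247 to 271 CPM after lactate. Of these 7, COL1A1 rose in SW480, from 21.6 ± 1.99 to 50.8 ± 1.61 CPM, and the others were not called. In DLD1 their sum was at most 11.5 CPM. The 8 leukocyte markers summed to at most 13.1 CPM in any DLD1 library, and in SW480 to 36.2 to 57.1 CPM in controls and 92.1 to 117 CPM after lactate, nearly all of it CD68, which rose (1.30 ± 0.22), with PTPRC and CD3E at or near 0 and CD2 at 0 in every library. Their part in the results below was not tested.

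Before the lactate comparisons, the untreated lines were set side by side. Levels of different genes are compared per kilobase of the longest annotated coding transcript, which understates a gene whose cells use a shorter one. Per kilobase, untreated SW480 had most of the malate dehydrogenases, MDH2 of the mitochondrion at 152 ± 1.86 and MDH1 of the cytosol at 143 ± 3.62 CPM per kb. IDH1, the cytosolic NADP-linked isocitrate dehydrogenase, followed at 104 ± 5.22 CPM per kb, with the mitochondrial aspartate aminotransferase GOT2 at 101 ± 3.79, the citrate synthase gene CS at 98.2 ± 8.56 and the fumarase gene FH at 94.4 ± 4.82, neighbours that lay within their spread of each other. At the low end were GLS2, the liver-type glutaminase, at 0.263 ± 0.0484 CPM per kb, the mitochondrial NADP-linked malic enzyme ME3 at 3.78 ± 0.446 and the mitochondrial isocitrate dehydrogenase IDH2 at 7.40 ± 1.44. In untreated DLD1, MDH1 at 210.0 ± 21.0 and IDH1 at 172 ± 17.0 CPM per kb came before MDH2 at 105 ± 21.1, and GLS2 at 3.43 ± 0.435 and PC, the pyruvate carboxylase gene, at 3.92 ± 1.27 were lowest.

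GLS2 differed most between the untreated lines on the log2 scale. It stood at 0.657, 0.583 and 0.831 CPM in the SW480 controls and at 9.33, 7.74 and 9.95 CPM in the DLD1 controls. Every DLD1 library lay above every SW480 library, and the fitted difference was 3.67 ± 0.23 on the log2 scale (± standard error, SE; 12.8-fold; adjusted p = 1.44e-09, edgeR's quasi-likelihood test with Benjamini-Hochberg adjustment over all genes tested, as for every adjusted p below). The SW480 value rests on 7 to 14 counts per library. SPRYD4, on the opposite strand, covers 77.1% of the exonic bases of GLS2, and the strand setting of the counting is not given in the sources used here, so reads of the pair could have been assigned to either gene. SPRYD4 itself differed between the untreated lines by 0.09 ± 0.12.

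ME3 and IDH2, both genes of mitochondrial NADP-linked enzymes, were the next most different. ME3 stood at 7.56, 9.50 and 9.14 CPM in SW480 controls and at 40.4, 33.1 and 46.9 CPM in DLD1 controls, a difference of 2.20 ± 0.15 (adjusted p = 3.33e-09). IDH2 stood at 15.6, 23.2 and 20.9 CPM against 97.6, 68.8 and 124 CPM, a difference of 2.28 ± 0.19 (adjusted p = 4.54e-08). For both genes all DLD1 controls lay above all SW480 controls, and DLD1 control 2 was the lowest DLD1 library.

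IDH1 was higher in DLD1 too. Its levels were 259, 238 and 261 CPM in SW480 controls and 437, 450.1 and 373 CPM in DLD1 controls, 0.73 ± 0.09 higher (adjusted p = 4.99e-06). SLC25A10, the dicarboxylate carrier, exchanges malate or succinate for phosphate across the inner membrane. It stood at 44.1, 33.1 and 36.7 CPM in SW480 and at 99.6, 58.4 and 119.6 CPM in DLD1, 1.29 ± 0.21 higher (adjusted p = 5.85e-05), with no overlap between lines but a wide spread in DLD1. SLC25A13, which encodes citrin, an aspartate/glutamate carrier of the malate-aspartate shuttle, stood at 56.3, 48.9 and 51.7 CPM in SW480 and at 81.2, 88.9 and 73.0 CPM in DLD1, 0.63 ± 0.11 higher (adjusted p = 9.25e-05). For each of these genes all 3 DLD1 controls exceeded all 3 SW480 controls.

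PC and the glutamine transporter gene SLC38A1 went the other way. PC, whose enzyme refills the cycle by making oxaloacetate from pyruvate, stood at 33.5, 38.2 and 35.0 CPM in SW480 controls and at 14.8, 12 and 22.4 CPM in DLD1 controls. The DLD1 libraries were all lower, with a difference of -1.11 ± 0.18 (adjusted p = 5.96e-05). LRFN4, on the opposite strand over 10.5% of the exonic bases of PC, differed by -1.08 ± 0.28. SLC38A1 stood at 674, 648 and 715 CPM in SW480 controls and at 293, 454 and 228 CPM in DLD1 controls, again with no overlap, a difference of -1.06 ± 0.18 (adjusted p = 0.000106).

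**Figure D1:**
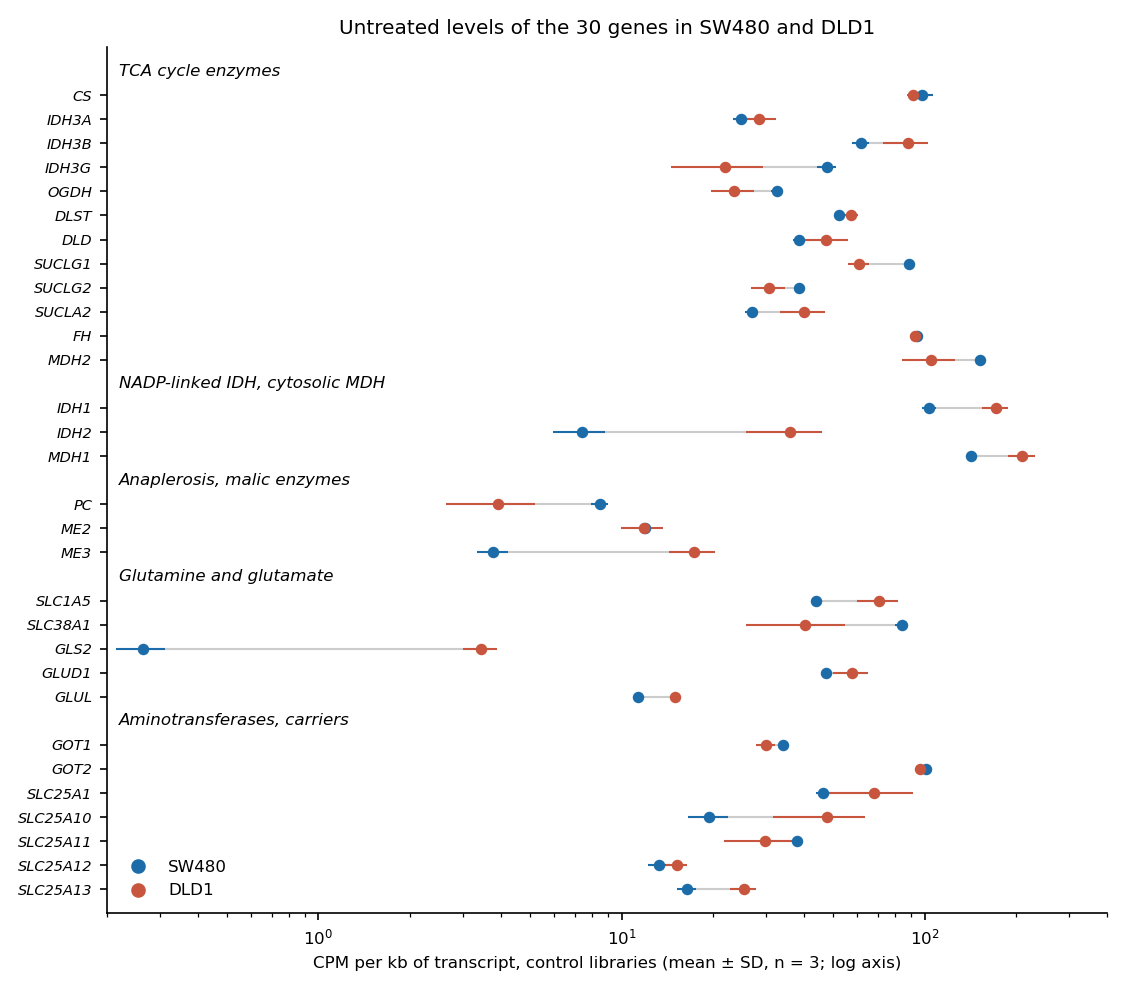
Level of each gene in untreated SW480 and DLD1, in CPM per kilobase of transcript on a log axis; points are means and bars SD of 3 controls. GLS2, ME3 and IDH2 stand furthest apart between the lines with DLD1 higher, and IDH3G, PC and SLC38A1 furthest apart with SW480 higher.

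In all, 22 of the 30 genes were called between the untreated lines (adjusted p under 0.05), 14 higher and 8 lower in DLD1. Over all 17572 genes tested, 70.8% were called, 33.6% higher and 37.3% lower. The control libraries did not overlap for 22 of the 30 genes, against 70.4% of all genes, so both shares lie near those of genes at large. The median difference was 0.20, against -0.05 over all genes.

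By role, 3 of 12 cycle enzymes were higher in DLD1 and 5 lower. IDH3B, a regulatory subunit of the NAD-linked isocitrate dehydrogenase, was higher by 0.52 ± 0.12, SUCLA2, the ADP-forming succinyl-CoA synthetase subunit, by 0.57 ± 0.12, and DLD, the dihydrolipoamide dehydrogenase shared by several dehydrogenase complexes, by 0.29 ± 0.12. The regulatory subunit gene IDH3G was lower, at -1.12 ± 0.19. SSR4, on the opposite strand over 10.2% of the exonic bases of IDH3G, differed by -1.09 ± 0.19. The other lower genes were SUCLG1, the shared subunit of succinyl-CoA synthetase (-0.55 ± 0.10), SUCLG2, its GDP-forming partner (-0.33 ± 0.10), MDH2 (-0.53 ± 0.13) and OGDH, the first enzyme of the 2-oxoglutarate dehydrogenase complex (-0.47 ± 0.12).

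MDH1, the cytosolic partner of MDH2, was higher in DLD1 by 0.56 ± 0.10. Of the genes that handle glutamine, SLC1A5, the ASCT2 transporter, was higher by 0.69 ± 0.12, glutamine synthetase (GLUL) by 0.40 ± 0.09 and glutamate dehydrogenase (GLUD1) by 0.27 ± 0.10. The citrate carrier SLC25A1 was higher by 0.56 ± 0.20 and the 2-oxoglutarate carrier SLC25A11 lower, at -0.36 ± 0.15. Some calls did not survive leaving out single libraries: GLUD1 without SW480 control 2 or DLD1 control 2 (adjusted p up to 0.0784), SLC25A1 without SW480 control 2, control 3 or DLD1 control 3 (up to 0.126), DLD without any SW480 control or DLD1 control 1 or 2 (up to 0.110), and SLC25A11 without any 1 library except DLD1 control 3 (up to 0.146). CS, FH, DLST, IDH3A, ME2, GOT1, GOT2 and SLC25A12 were not called, with differences of -0.20 to 0.20.

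The question in SW480 was which of these genes changed with lactate. SLC25A13, IDH3A, IDH1, SLC25A10, FH, ME3 and DLST fell, by 1.21-fold to 1.98-fold, and 0 genes rose. That is 7 of 30 genes called, against 12.4% of all genes tested, of which 6.83% were higher and 5.59% lower. Control and lactate levels were without overlap for 18 of the 30 genes, against 41.0% of all genes. In sign, 25 genes were lower and 5 higher, with a median of -0.16 on the log2 scale against -0.01 over all genes. On GRCh38.p14 (RefSeq), SLC25A13 lies on chromosome 7 from 96120220 to 96322098 and IDH3A on chromosome 15 from 78149362 to 78171945. IDH1 spans 208236227 to 208255071 on chromosome 2, and SLC25A10 81712284 to 81721012 on chromosome 17. FH lies on chromosome 1 (241497603 to 241519755), ME3 on chromosome 11 (86434930 to 86672616) and DLST on chromosome 14 (74881916 to 74903743). In these bulk libraries, fewer cells with a transcript and less of it per cell cannot be told apart.

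For SLC25A13, IDH3A and IDH1, 3 of the genes whose fall was called in at least 20 of 21 alternative analyses, the DNA before the transcription start is shown, because they fell together in SW480. Sequences are RefSeq, GRCh38.p14, 5′ to 3′ on the strand of the gene. Each is the longest stretch of the 250 bases before the RefSeq start, at the 5′ end of the gene's span, that holds no exon of GENCODE v29. They are chr7:96322148-96322348 (minus strand), chr15:78149112-78149320 (plus) and chr2:208255134-208255246 (minus). Capitals mark matches, on either strand, to 5 motifs, which may overlap each other. The E-box was searched as CACGTG. The CCAAT box was searched by the letters of its name. The GC box was searched as GGGCGG. The core of NRF1 binding sites was searched as GCATGCGC. The core of ETS family sites was searched as CGGAAG.
SLC25A13: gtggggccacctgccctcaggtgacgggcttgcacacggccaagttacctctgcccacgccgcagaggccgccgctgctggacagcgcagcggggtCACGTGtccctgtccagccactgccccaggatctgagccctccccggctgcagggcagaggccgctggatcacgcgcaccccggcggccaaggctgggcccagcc
IDH3A: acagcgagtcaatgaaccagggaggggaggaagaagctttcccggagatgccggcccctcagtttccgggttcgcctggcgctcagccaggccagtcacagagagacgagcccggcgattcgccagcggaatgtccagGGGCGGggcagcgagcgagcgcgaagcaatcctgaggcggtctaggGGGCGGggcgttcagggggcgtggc
IDH1: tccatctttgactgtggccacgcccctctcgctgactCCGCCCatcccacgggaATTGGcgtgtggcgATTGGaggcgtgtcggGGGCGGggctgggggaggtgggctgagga
The stretch of SLC25A13 held 1 E-box, that of IDH3A 2 GC boxes, and that of IDH1 2 GC boxes and 2 CCAAT boxes. Within the whole 250 bases, SLC25A13 also had 1 GC box and 1 CCAAT box, and IDH3A and IDH1 had 3 GC boxes each. Of the 29 genes with a promoter in the reference table, 19 had a GC box within the whole 250 bases, 14 a CCAAT box, 6 an ETS core, 2 an E-box (SLC25A13 and ME3) and 0 an NRF1 core. Over 35116 promoters of the same length the shares were 42.6% for the GC box, 32.0% for the CCAAT box, 16.5% for the ETS core, 6.34% for the E-box and 2.63% for the NRF1 core. A match describes the letters only.

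Of the carriers, SLC25A13 had the smallest p of the 30 genes. The SW480 controls stood at 56.3, 48.9 and 51.7 CPM and the lactate libraries at 32.8, 32.5 and 38.4 CPM. All 3 lactate libraries lay below all 3 controls, with a log2 fold change of -0.60 ± 0.11 (1.51-fold lower; adjusted p = 0.0031). This call held in all 21 alternatives. SLC25A10 went from 44.1, 33.1 and 36.7 CPM to 21.7, 18.8 and 17.0 CPM. The groups did not overlap, and the fold change of -0.99 ± 0.22 (1.98-fold lower; adjusted p = 0.00881) was the largest in size among the 30 genes. It lost its call without SW480 control 1, the highest control (adjusted p = 0.0638). A gene on the same strand, AC139530.2, shares 46.6% of the exonic bases of SLC25A10, and reads of such shared exons could be split or dropped in counting. The count table has no row under the symbol AC139530.2, and whether the counting included that gene is not known.

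SLC25A12, which encodes aralar, the other aspartate/glutamate carrier, was not called (-0.13 ± 0.11; adjusted p = 0.485). Nor were SLC25A1 (-0.28 ± 0.20) and SLC25A11 (-0.08 ± 0.15). GOT2 was at 249 ± 9.32 CPM in controls and 217 ± 1.80 CPM after lactate, with no overlap but an adjusted p of 0.125 (-0.20 ± 0.08), and its cytosolic counterpart GOT1 was at 100.1 ± 3.83 and 103 ± 6.30 CPM (0.04 ± 0.10).

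Among the cycle enzymes, IDH3A, the catalytic subunit of the NAD-linked isocitrate dehydrogenase, went from 106, 95.8 and 105 CPM to 69.5, 67.7 and 73.8 CPM. The groups were well apart, with a log2 fold change of -0.54 ± 0.11 (1.46-fold lower; adjusted p = 0.00504), and the call held in all 21 alternatives. ACSBG1, on the opposite strand over 38.2% of the exonic bases of IDH3A, averaged under 1 CPM in each group. The other subunits were not called: IDH3B stood at 95.1 ± 6.37 and 76.4 ± 3.18 CPM (-0.32 ± 0.12; adjusted p = 0.0968) and IDH3G at 81.7 ± 5.90 and 85.5 ± 11.3 CPM (0.07 ± 0.19; adjusted p = 0.866). Whether IDH3A changed by more than its partner subunits was not tested.

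FH, the enzyme that hydrates fumarate to malate, went from 179, 163 and 167 CPM to 130.1, 131 and 135 CPM. Every lactate library lay below every control, at a log2 fold change of -0.36 ± 0.09 (1.28-fold lower; adjusted p = 0.0196). DLST, the succinyltransferase core of the 2-oxoglutarate dehydrogenase complex, went from 154, 145 and 145 CPM to 125, 126 and 116 CPM, without overlap, at -0.27 ± 0.09 (1.21-fold lower; adjusted p = 0.0487). Both calls depended on single libraries. FH was called in 15 of 21 alternatives and lost its call without SW480 control 1, control 3 or any 1 of the 3 SW480 lactate libraries (adjusted p up to 0.113), and with no filter on low counts. DLST was called in 8 and lost its call without any 1 of the 6 SW480 libraries, without DLD1 control 1 and without any 1 of the DLD1 lactate libraries (adjusted p up to 0.210). It also lost its call with no filter on low counts (adjusted p = 0.211), with median-of-ratios scaling (0.0648) and with the replicate block (0.0817).

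The other subunits of that complex were not called, OGDH at -0.04 ± 0.12 and DLD at -0.20 ± 0.12. CS, which condenses acetyl-CoA with oxaloacetate, stood at 300.2 ± 26.2 and 302 ± 18.4 CPM (0.01 ± 0.09; adjusted p = 0.976). The succinyl-CoA synthetase genes lay at -0.16 ± 0.10 (SUCLG1), -0.05 ± 0.10 (SUCLG2) and -0.14 ± 0.12 (SUCLA2), and MDH2 at -0.12 ± 0.12. None of these passed the test.

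Outside the cycle proper, IDH1 went from 259, 238 and 261 CPM to 183, 181 and 189.8 CPM. The lactate libraries lay close together and all below the controls, at a log2 fold change of -0.45 ± 0.09 (1.37-fold lower; adjusted p = 0.00639). The call was lost only without SW480 lactate 2, at an adjusted p of 0.0510. IDH2, which catalyses the same reaction in the mitochondrion, lay on the other side: 15.6, 23.2 and 20.9 CPM in controls and 28.4, 28.4 and 24.1 CPM after lactate. These groups did not overlap either, but IDH2 was not called (0.44 ± 0.19; adjusted p = 0.147).

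ME3 fell from 7.56, 9.50 and 9.14 CPM to 6.63, 5.63 and 5.62 CPM, with no overlap, at -0.55 ± 0.16 (1.46-fold lower; adjusted p = 0.0375). It rests on 78 to 154 counts per library. Its call held in 10 of 21 alternatives and was lost without any 1 of the SW480 libraries, without DLD1 control 1 and without any 1 of the DLD1 lactate libraries (adjusted p up to 0.155), and with limma-voom. ME2, the NAD-linked malic enzyme, stood at 113 ± 1.98 and 94.7 ± 6.73 CPM (-0.25 ± 0.11; adjusted p = 0.162). PC stood at 35.5 ± 2.39 and 46.3 ± 5.16 CPM (0.38 ± 0.17; adjusted p = 0.167) and MDH1 at 236 ± 5.97 and 202 ± 10 CPM (-0.22 ± 0.10; adjusted p = 0.172). For all 3 genes the groups were without overlap.

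Of the 5 genes that take up, make or break down glutamine, 0 were called in SW480. SLC38A1, the most abundant of them in CPM, stood at 679 ± 33.8 and 608 ± 60.3 CPM (-0.16 ± 0.18). SLC1A5 stood at 126 ± 4.64 and 122 ± 3.41 CPM (-0.05 ± 0.12), GLUL at 53.7 ± 1.76 and 52.4 ± 2.39 CPM (-0.03 ± 0.09), and GLUD1 at 144 ± 6.12 and 135 ± 1.15 CPM (-0.09 ± 0.10). GLS2 was under 1 CPM in all 6 SW480 libraries, and a difference was not detectable at this depth (-0.34 ± 0.32).

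**Figure D2:**
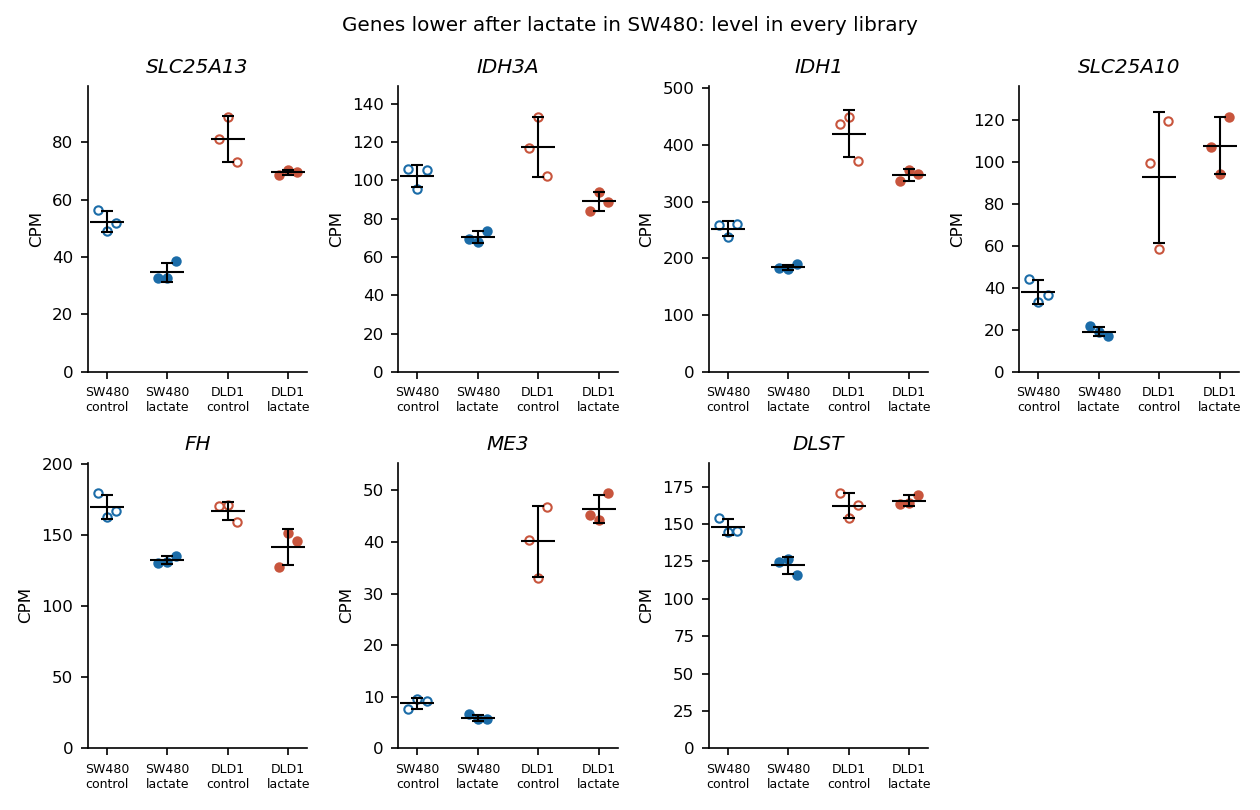
Levels in CPM, on linear axes from 0, of the 7 genes called with lactate in SW480, in all 12 libraries; points are single libraries (controls open, lactate filled), with group mean and SD in black. In SW480 the 3 lactate libraries of each gene lie below the 3 controls, and the DLD1 controls of SLC25A10 run from 58.4 to 119.6 CPM.

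The SW480 count moved with the libraries in the fit. It was 3 without SW480 control 1 or lactate 2, against 3.83% and 4.75% of all genes. It was 4 without SW480 control 3, lactate 1 or lactate 3, against 6.76%, 9.46% and 6.70%. Without DLD1 control 2 it was 12, 2 of them higher, against 24.0%. With SW480 fitted alone 14 genes were called, 2 of them higher, against 30.2% of all genes, and with the trend along GC content and transcript length removed 15 were called, again 2 higher, against 28.3%. In both, the higher genes were IDH2 (0.45 and 0.43) and PC (0.39 and 0.28), and all 7 genes named above were among the lower ones. Transcripts of the mitochondrial genome changed in the same libraries: 10 of 13 protein genes fell in SW480, with a median of -0.55, and their summed level ran from 48876 to 53146 CPM in controls and from 35375 to 39809 CPM after lactate. Its part in the changes of the 30 genes was not tested.

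In DLD1, the fold changes of the 30 genes with lactate ran from -0.42 (SLC38A1) to 0.35 (IDH2), and 0 were called in edgeR's test, against 0.381% of all genes (67 of 17572). At an unadjusted p under 0.05 there were 9: IDH3A, GLUL, IDH1, SUCLG2, FH, SLC38A1, DLD, ME2 and SLC25A12. The share of all genes at that unadjusted threshold is not given here, and the 0.381% is for adjusted p. The 9 therefore cannot be read as more than among genes at large. DESeq2 called 4 (IDH3A, GLUL, IDH1 and FH), against 5.98% of the genes to which it gave an adjusted p. Control and lactate levels were without overlap for 8 of the 30 genes, against 18.9% of all genes.

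IDH3A had the smallest p in DLD1. It stood at 117, 133 and 102 CPM in controls and at 84.3, 94.1 and 88.8 CPM after lactate. The groups did not overlap, and the fold change was -0.40 ± 0.11 (adjusted p = 0.124). IDH1 stood at 437, 450.1 and 373 CPM and at 336, 356 and 349 CPM, also apart (-0.27 ± 0.09; adjusted p = 0.164). GLUL, which makes glutamine from glutamate and ammonia, lay the other way, at 72.7, 68.9 and 71.4 CPM in controls and 82.1, 90.2 and 85.1 CPM after lactate (0.27 ± 0.09; adjusted p = 0.156). These 3 genes were singled out after their values were seen, as those with the smallest p in DLD1.

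The other genes called in SW480 were at -0.22 ± 0.11 (SLC25A13), -0.24 ± 0.09 (FH), 0.03 ± 0.08 (DLST), 0.21 ± 0.13 (ME3) and 0.22 ± 0.20 (SLC25A10) in DLD1, none of them called. The glutamine transporter genes were at -0.42 ± 0.18 (SLC38A1) and 0.14 ± 0.12 (SLC1A5), where DLD1 control 2 had the highest SLC38A1 level, 454 CPM, and the lowest SLC1A5 level, 171 CPM, of the 3 controls.

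GC content moved with the DLD1 values. Across the 30 genes, whose transcripts held 39.3% (DLD) to 65.6% (SLC25A1) GC, the DLD1 fold changes followed GC content with rho 0.86, against 0.70 over 11759 genes and 0.18 for the same 30 genes in SW480. These rho describe genes measured in the same libraries and carry no p. The 5 genes of lowest GC content (DLD, ME2, SUCLG2, SLC38A1 and SUCLA2, 39.3% to 42.0%) were at -0.42 to -0.09, and the 5 of highest (PC, IDH3G, SLC1A5, SLC25A10 and SLC25A1, 61.1% to 65.6%) at 0.14 to 0.34. The rho was 0.55 without DLD1 control 2, 0.92 without control 3 and 0.28 with the GC and length trend removed. Without control 3, 12 genes were called, 6 higher and 6 lower, against 21.0% of all genes. The 6 lower genes (IDH1, IDH3A, DLD, SUCLG2, ME2 and SLC38A1) had a GC content of 43.7% or less. Of the 6 higher genes, IDH2, IDH3G, OGDH, PC and SLC25A1 had 55.9% or more and GLUL 49.0%. With the trend removed IDH3A alone was called, lower at -0.29 (adjusted p = 0.00934), against 3.31% of all genes.

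**Figure D3:**
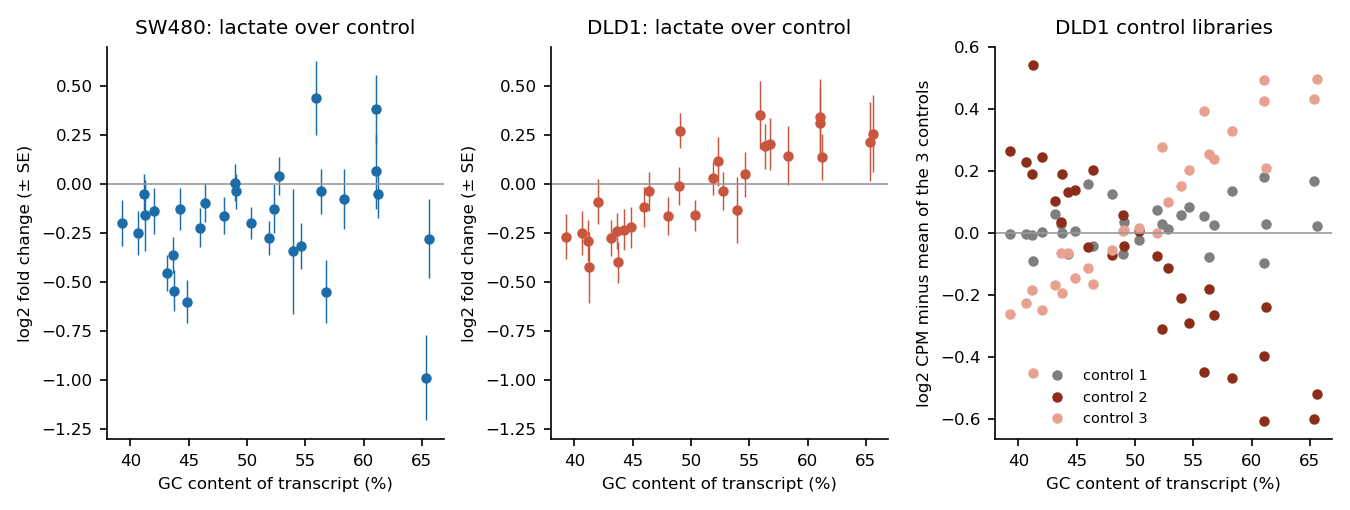
Log2 fold change with lactate against transcript GC content for the 30 genes in SW480 and DLD1, with SE bars, and log2 CPM of each DLD1 control minus the mean of the 3 controls. In DLD1 the points rise with GC content (rho 0.86), control 2 slopes down and control 3 up, and in SW480 the slope is weak (rho 0.18).

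The difference between the lactate effects of the lines (DLD1 minus SW480) was tested as an interaction. In edgeR's test it was called for 0 of the 30 genes, against 0.728% of all genes (128 of 17572). An unadjusted p under 0.05 was reached by 6 of the 30, and the share of all genes at that threshold is not given here. Across the 30 genes the difference followed GC content with rho 0.53, against 0.49 over 11759 genes. The transcript of SLC25A10 held 65.4% GC, and the part of GC content in its difference was not tested. SLC25A10 had the smallest p: it fell in SW480 and stood at 92.5 ± 31.2 and 108 ± 13.6 CPM in DLD1, a difference of 1.20 ± 0.29 (95% interval 0.63 to 1.78; adjusted p = 0.0705). ME3 followed at 0.76 ± 0.21 (0.35 to 1.16; adjusted p = 0.102). DESeq2 called both genes and no other of the 30, against 4.85% of the genes with an adjusted p.

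SLC25A10 and ME3 were also called with no filter on low counts, against 2.32% of all genes. SLC25A10 was called without DLD1 control 2 (0.96; adjusted p = 0.00685), against 3.29%, and without control 3 (1.43; adjusted p = 0.00857), against 8.35%. Without control 3, ME3 (0.88) and SLC25A1 (0.82) were called as well. With the GC and length trend removed 4 genes were called, against 7.90% of all genes: SLC25A10 at 0.96, ME3 at 0.58, SLC25A13 at 0.46 and IDH1 at 0.27, each with the lower fold change in SW480. For IDH3A, at -0.54 in SW480 and -0.40 in DLD1, the difference was 0.14 ± 0.15 (adjusted p = 0.641), and for FH 0.12 ± 0.13. A p of this size does not show that the lines responded alike.

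**Figure D4:**
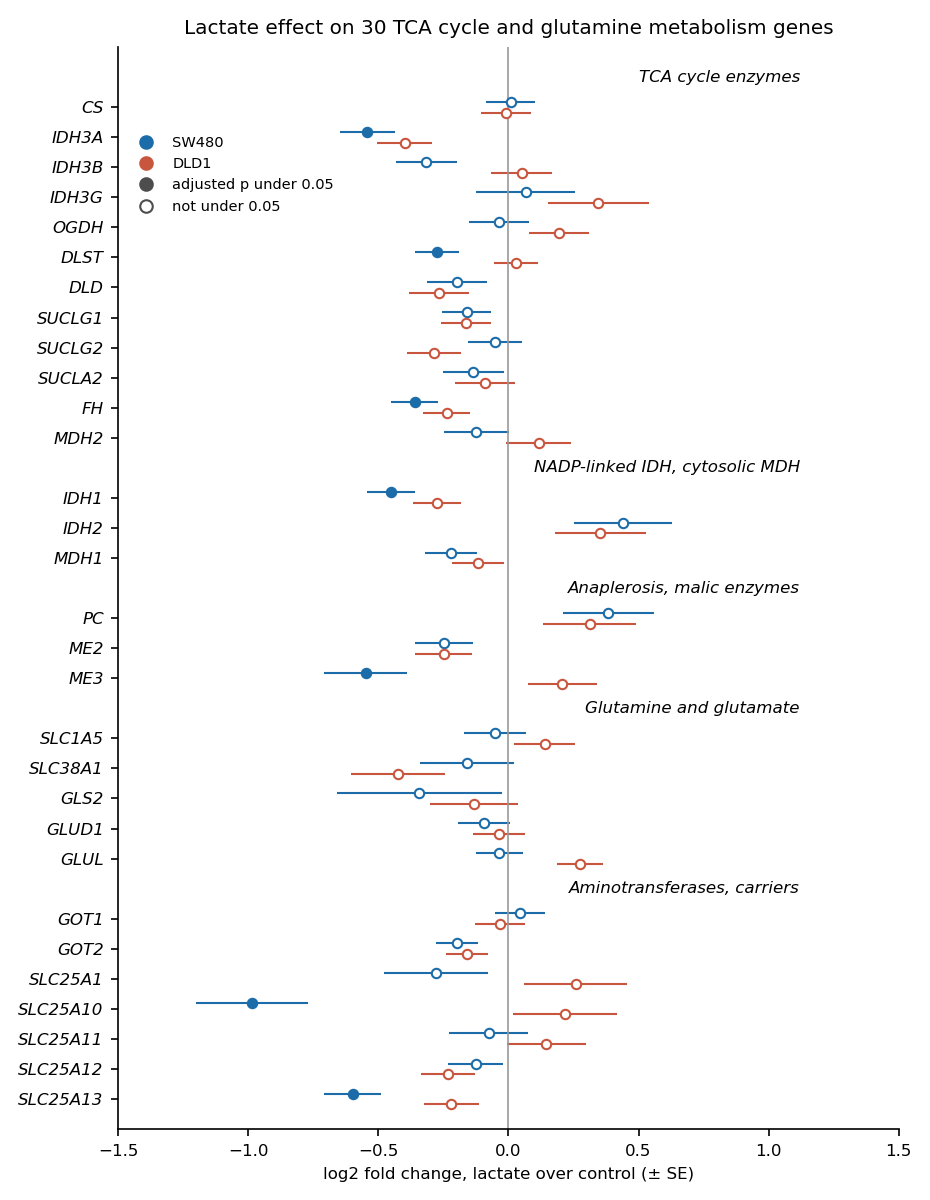
Log2 fold change with lactate for the 30 genes in SW480 and DLD1, with SE bars; filled points are called. The 7 called genes all lie below 0 in SW480, and 0 are called in DLD1.

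Pairs of genes whose products catalyse the same step, or carry the same substrates, were read as the share of the pair's length-scaled level (CPM per kb) taken by 1 partner. These shares are a description, with no test. IDH2 took 6.69% ± 1.47 of IDH1 plus IDH2 in SW480 controls and 11.7% ± 1.20 after lactate, with no overlap. In DLD1 it took 17.4% ± 5.49 and 24.4% ± 1.24, where the highest control, 23.1%, lay above the lowest lactate library, 23%. SLC25A13 took 55.2% ± 2.12 of the 2 aspartate/glutamate carriers in SW480 controls and 47.0% ± 2.65 after lactate, and 62.4% ± 1.29 and 62.7% ± 1.13 in DLD1. In SW480 the IDH2 share was thus higher and the SLC25A13 share lower in every lactate library than in every control. The MDH2, GOT2 and SUCLA2 shares were also without overlap between control and lactate in SW480, by smaller margins, and those of GOT2 and SUCLA2 in DLD1.

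GOT2 took 74.7% ± 0.936 of the aspartate aminotransferases in SW480 controls and 71.5% ± 1.40 after lactate, and 76.4% ± 1.30 and 74.8% ± 0.510 in DLD1. The remaining pairs stood further apart between the lines than between control and lactate. MDH2 took 51.6% ± 0.383 and 53.3% ± 0.781 of the malate dehydrogenases in SW480, against 33.3% ± 5.43 and 37.1% ± 3.10 in DLD1. SUCLA2 took 41.1% ± 0.378 and 39.7% ± 0.298 of the nucleotide-specific succinyl-CoA synthetase subunits in SW480, against 56.6% ± 1.03 and 60.0% ± 0.118 in DLD1. ME3 took 24.0% ± 2.25 and 20.5% ± 2.58 of ME2 plus ME3 in SW480, against 59.2% ± 7.98 and 66.8% ± 1.76 in DLD1. The longest transcript of ME2 has 9415 bases, which lowers its value per kilobase and raises the ME3 share.

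**Figure D5:**
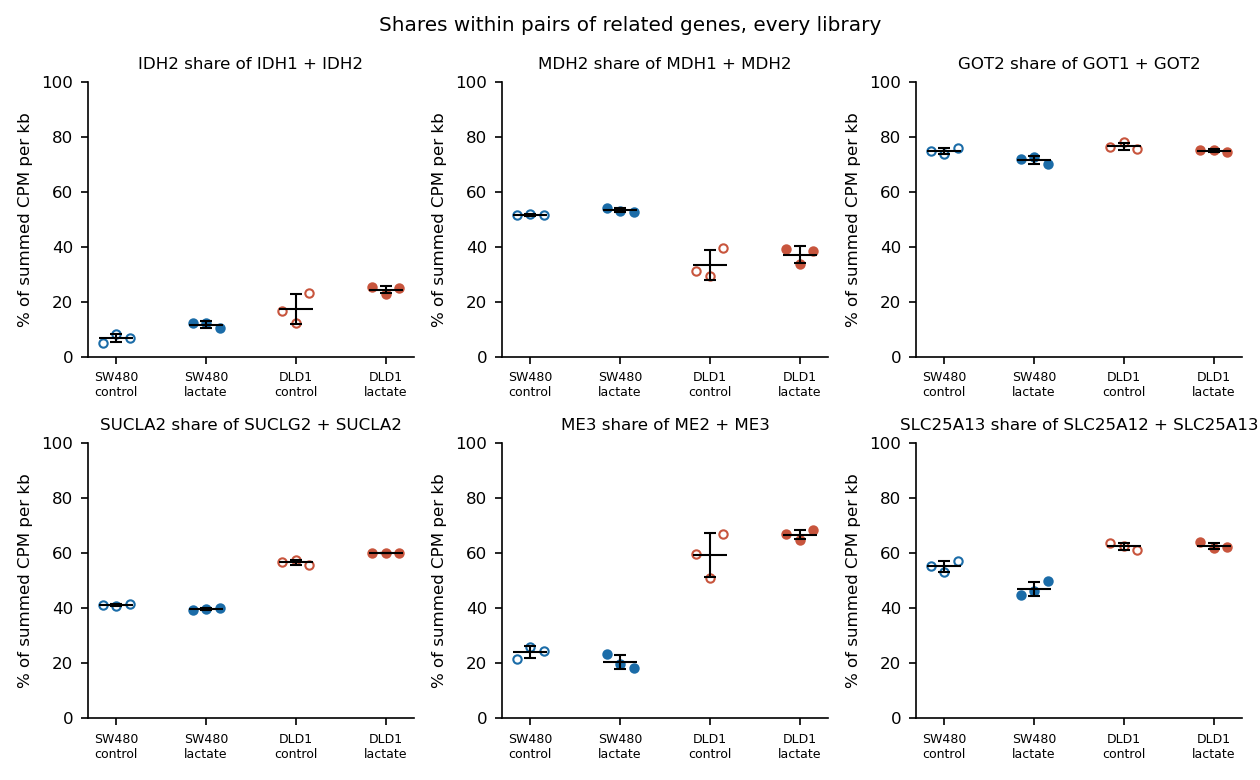
Share of each pair's CPM per kb taken by the partner named, in percent, for the 12 libraries; points are single libraries (controls open, lactate filled), with group mean and SD in black. All shares but that of ME3 separate control from lactate in SW480, and the MDH2, SUCLA2, ME3 and SLC25A13 shares separate SW480 from DLD1.

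Other genes of the same pathways were counted in 6 lists, to be read against the 12.4% of all genes called in SW480, 6.83% higher and 5.59% lower. Of 25 other genes of the cycle and of pyruvate entry, 1 was called in SW480: PDHB, a subunit of pyruvate dehydrogenase, fell (-0.42 ± 0.10). Of 30 tested enzymes of glutamine, glutamate and aspartate metabolism, 3 rose and 2 fell. The 3 with the smallest p were the CTP synthase gene CTPS1 (-0.61 ± 0.11), whose enzyme uses glutamine as nitrogen donor, the glutamate decarboxylase gene GAD1 (0.84 ± 0.15) and the adenylosuccinate lyase gene ADSL (-0.47 ± 0.09). Of 14 tested glutamine, glutamate and aspartate transporters, 2 fell, SLC7A6 (-0.44 ± 0.11) and SLC1A4 (-0.35 ± 0.09).

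Among mitochondrial carriers outside the 30 genes, the glutamate carrier SLC25A18 fell in SW480 (-0.90 ± 0.27). Of 17 regulators, 3 rose and 2 fell. PDK3 (0.66 ± 0.10) and PDK1 (0.45 ± 0.10), kinases that inhibit pyruvate dehydrogenase, rose, and NRF1 (-0.58 ± 0.14), a transcription factor for nuclear genes of mitochondrial proteins, fell. Of the mitochondrially encoded genes, which fell as given above, COX3 (-0.87 ± 0.10), ND1 (-0.74 ± 0.10) and COX2 (-0.75 ± 0.10) had the smallest p. In DLD1, 0 genes of these 6 lists were called. The difference between lines was called for GAD1 (-0.95 ± 0.20), COX3 (0.85 ± 0.14), COX2 (0.73 ± 0.14) and ND1 (0.64 ± 0.14).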

How the data were processed

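The authors deposited a table of whole-number read counts by gene symbol, unnormalized, whose 12 columns are the libraries. The submitters' processing notes name HISAT2 and GRCh38. Counting tool, annotation and strand setting: not given in the sources used here. With edgeR 4.0.16 (R 4.3.3), filterByExpr kept 17572 of 54261 genes, TMM scaled the libraries (12302311 to 22662063 counts), and a robust quasi-likelihood model with 4 group means took in every library. Tests are two-sided. An SE is the size of the log2 fold change divided by the root of its F statistic. A 95% interval is the log2 fold change ± 1.96 SE. This normal approximation is narrower than an interval with the test's own degrees of freedom. CPM uses TMM-scaled totals over tested genes. GC content and length come from the longest coding transcript in GENCODE v29. The 30 genes, the marker, pathway and role lists and the tests were chosen with earlier results of these data known.

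Every library is given for genes called in SW480 (at most 12), for genes called in DLD1 or in the difference, and for the 8 genes with the smallest p between untreated lines that reach 5 CPM. From each other list at most 3 called genes with the smallest p in SW480 were named. Alternatives were 2 other scalings (median of ratios, upper quartile), 2 other filters (none, or 1 CPM or more in 3 libraries), 2 other tools (DESeq2 1.42.0 and limma-voom, limma 3.58.1), a block for the replicate number, splines with 5 degrees of freedom that take out the trend along GC content and length in each library, a fit of each line alone, and each library left out in turn. Replicate libraries differed beyond sampling noise. The fit was tested on simulated data. Some items are not reported here.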

Additional observations from a re-analysis of the deposited data

How the results depend on the processing

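With lactate in SW480, 7 of the 30 genes were called; 6 to 8 were called under either other scaling, either other filter, DESeq2, limma-voom and the replicate block (6, where DLST lost its call), 15 after removal of the trend along GC content and length, 14 with the line fitted alone, and 3 to 12 when each library was left out in turn. In DLD1 the count of 0 became 1 with no filter (SLC38A1), 4 with DESeq2, 1 with the trend removed (IDH3A) and 0 to 12 when single libraries were left out, where only leaving out DLD1 control 3 gave any. For the difference between lines, 0 became 2 with no filter, 2 with DESeq2, 1 with the replicate block (SLC25A10, at 1.25, adjusted p = 0.00839), 4 with the trend removed and 0 to 3 when single libraries were left out (1 without DLD1 control 2, 3 without control 3). Between untreated lines 18 to 27 were called over all alternatives, against 22. The share of all genes called moved with the setting too, in SW480 from 3.83% to 30.2% over the settings given above. It is not given here for every alternative, so a changed count is not by itself a result about the 30 genes. FH and ME2, near 0 between untreated lines (-0.02 and -0.01), were at 0.19 and 0.41 with the trend removed. The cause of these shifts was not tested. Removing the trend would also remove a lactate effect that tracks GC content. Same-numbered libraries of a line deviated together only weakly (correlations -0.07 to 0.18), and not every library correlated best with its own number, so the numbers were not taken as pairs, and the block was not fitted between untreated lines, where numbers link no libraries. Depth limits GLS2 in SW480, at 7 to 14 counts per library.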
